A study of Mus musculus with 6 samples.

Results

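Neuropeptide and stress-hormone receptors were examined in mast cells sorted from fetal mouse skin. The members are 9 receptor genes chosen by name: Ramp1, Calcrl, Tacr1, Tacr2, Crhr1, Crhr2, Vipr1, Vipr2 and Nmur1, out of 55809 gene rows in the count tables. All 9 have a row, and 4 of them (Ramp1, Calcrl, Vipr1 and Vipr2) passed the filter on low counts that left 16716 genes to test. No adrenergic receptor is among the 9; 8 adrenergic receptor genes were examined as a separate list.

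The study sequenced poly-A RNA of sorted cells from C57BL6J fetuses of both sexes at embryonic day 18.5, in 3 control and 3 prenatal stress libraries, each from a pool of 4 mice. Dams of both groups were 8 to 10 weeks old. Dams of the prenatal stress group were held in tubes under bright light, in 3 sessions of 30 minutes daily; the treatment protocol starts this at embryonic day 13 and ends it at day 18, and the design text starts it at day 13.5. Control dams were not handled in this way. The sort took cells positive for CD45, CD117 (KIT) and ST2 and negative for the macrophage proteins F4/80 and CD64. The labels do not say how many litters a pool held, and p-values here reflect the differences between pools only.

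Mast cells lie close to sensory nerve endings in skin and respond to the peptides these nerves release. Calcitonin gene-related peptide (CGRP) binds a receptor made of CALCRL, which spans the membrane 7 times like other G protein-coupled receptors, and RAMP1, a single-pass partner protein. With RAMP2 or RAMP3 as its partner, CALCRL binds adrenomedullin instead. Substance P acts on the tachykinin receptors (TACR1, TACR2), vasoactive intestinal peptide (VIP) on VIPR1 and VIPR2, corticotropin-releasing hormone (CRH) and urocortins on CRHR1 and CRHR2, and neuromedin U on NMUR1. The CGRP, VIP and CRH receptors signal mainly through Gs and cyclic AMP, and the tachykinin and neuromedin U receptors through Gq and phospholipase C.

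The libraries held 51710555 to 74735139 counts assigned to genes. Levels are given in CPM, read counts scaled to a common library size with TMM factors. Mast cell markers were high in every library. The 10 markers summed to 58717 to 70958 CPM in controls and 85048 to 102462 CPM after stress. Of the 10, edgeR called 6 higher, where it called 4.34% of all genes tested higher. Macrophage markers were also present (16 genes, 8193 to 9516 CPM in controls and 6151 to 9373 CPM after stress). Their median log2 difference was -0.40, and edgeR called Cd68 higher and Cx3cr1 lower. DESeq2 called 5 lower (Apoe, Csf1r, Cx3cr1, Mertk and Trem2) and 1 higher, where it called 11.9% of all genes tested in either direction. In bulk RNA, fewer cells of a type and less RNA per cell cannot be told apart.

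Of the 4 members tested, 1 was called higher after prenatal stress and none lower, at an adjusted p of 0.05 in edgeR's quasi-likelihood test. The call rate over all genes tested was 6.19% (1035 of 16716), 4.34% higher and 1.85% lower. Of the called genes 70.0% were higher, against 26.5% when libraries were scaled by their totals instead of TMM factors. The gene called was Ramp1, which was also the only member called by DESeq2 and by limma-voom, at call rates over all genes of 11.9% and 5.96%. Below, rose and fell mean called by edgeR. The stress libraries lay above every control for Ramp1 and Vipr2, and non-overlapping groups occurred in 30.6% of all genes tested, with stress above in 16%.

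Ramp1 encodes the partner protein that makes CALCRL a CGRP receptor. Its level was 19.1, 18.0 and 19.2 CPM in control replicates 1, 2 and 3 and 26.9, 31.6 and 26.9 CPM in stress replicates 1, 2 and 3. The controls lay close together, and each stress library was above all of them. The mean rose from 18.8 ± 0.689 to 28.5 ± 2.69 CPM (SD, n = 3 pools each), a 1.52-fold rise (95% interval 1.34 to 1.72). On the log2 scale the difference was 0.60 (SE 0.08, edgeR adjusted p = 0.00796). Removing any 1 library kept the call (adjusted p from 0.00171 to 0.0398).

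Calcrl encodes the membrane-spanning subunit shared by the CGRP and adrenomedullin receptors. It was at 39.1, 38.4 and 33.0 CPM in the controls and at 38.6, 43.3 and 39.2 CPM in the stress libraries, so the groups overlapped. The means were 36.9 ± 3.34 and 40.4 ± 2.60 CPM (SD, n = 3), and the log2 difference of 0.13 (SE 0.08) did not pass the test (edgeR adjusted p = 0.348). The 95% interval of the fold change ran from 0.965 to 1.24, below the whole of the interval for Ramp1.

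**Figure D1:**
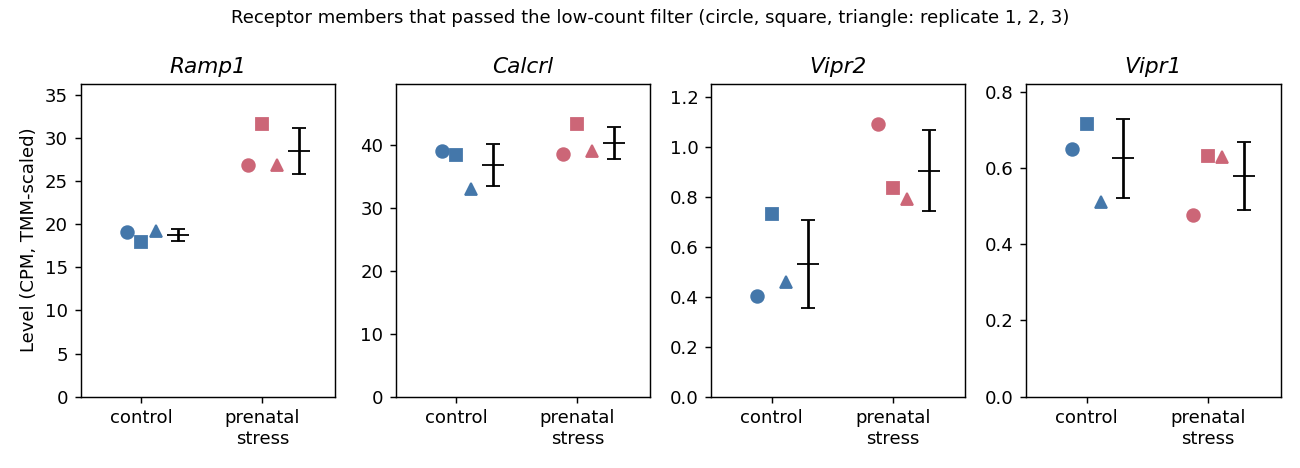
Level in CPM of each member that passed the low-count filter, by group; points are the 3 pooled libraries of each group and bars the mean ± SD. The Ramp1 controls sit at 18.0 to 19.2 CPM, below all stress libraries at 26.9 to 31.6, while the Calcrl groups overlap.

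The ratio of the CGRP receptor's parts was compared within each library, which takes out the library scaling. Per kb of exon, the Ramp1 level divided by the Calcrl level was 0.791, 0.756 and 0.939 in control replicates 1, 2 and 3, against 1.13, 1.18 and 1.11 in the stress libraries. The groups did not overlap (mean 0.828 ± 0.0974 and 1.14 ± 0.0346; exact permutation test, two-sided, p = 0.1; 0.133 adjusted over 4 ratios and shares). With 3 libraries a group no p below 0.1 can be reached. Ramp1 was below Calcrl per kb in each control and above it in each stress library. That order rests on the length used: with the longest coding transcript as length, the control ratios were 1.03, 0.982 and 1.22 and the stress ratios 1.46, 1.53 and 1.44. The difference between groups was 0.46 on the log2 scale with either length, and 0.40 to 0.56 when any 1 library was left out.

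Of the list of 15 related receptor genes 5 were tested, 1 rose, none fell and 4 did not pass (median log2 difference 0.21). Among the other partner genes, Ramp3 was the most abundant per kb and Ramp2 was close to absent. Ramp3 directs CALCRL towards adrenomedullin. It was at 34.0, 22.1 and 24.6 CPM in the controls and 50.2, 54.7 and 42.7 CPM after stress, so all stress libraries were higher. The mean rose from 26.9 ± 6.27 to 49.2 ± 6.10 CPM (SD, n = 3), a log2 difference of 0.87 (SE 0.15, edgeR adjusted p = 0.0189). The call failed with control replicate 2 removed (adjusted p = 0.0797) or 3 (0.0684), with stress replicate 1 removed (0.0609) or 2 (0.0767), and with the endothelial list mean as a covariate (0.0557). A gene on the opposite strand, Gm11978, overlaps 7.32% of the Ramp3 exon length. Ramp2, the partner known from blood vessels, had 22, 22 and 8 counts in the controls and 8, 22 and 20 after stress, and 33.4% of its exon length overlaps Vps25, so its counts are uncertain.

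Per kb of exon, Ramp3 stood at 19.5 ± 4.54 in controls and 35.7 ± 4.42 CPM per kb after stress, and Calcrl at 7.55 ± 0.684 and 8.27 ± 0.532 (SD, n = 3). Ramp1 stood at 6.21 ± 0.228 and 9.42 ± 0.891 on that scale. The Ramp3 to Calcrl ratio was 2.03 to 3.07 in controls and 3.85 to 4.60 in stress libraries (exact permutation test, p = 0.1; 0.133 adjusted over 4). The Ramp3 to Ramp1 ratio overlapped between groups (3.13 ± 0.66 and 3.78 ± 0.31; exact permutation test, p = 0.3, also 0.3 adjusted). Crcp, a further protein tied to CGRP receptor signalling, was at 23.7 ± 0.911 and 22.0 ± 1.36 CPM and did not pass (log2 difference -0.11, adjusted p = 0.363).

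**Figure D2:**
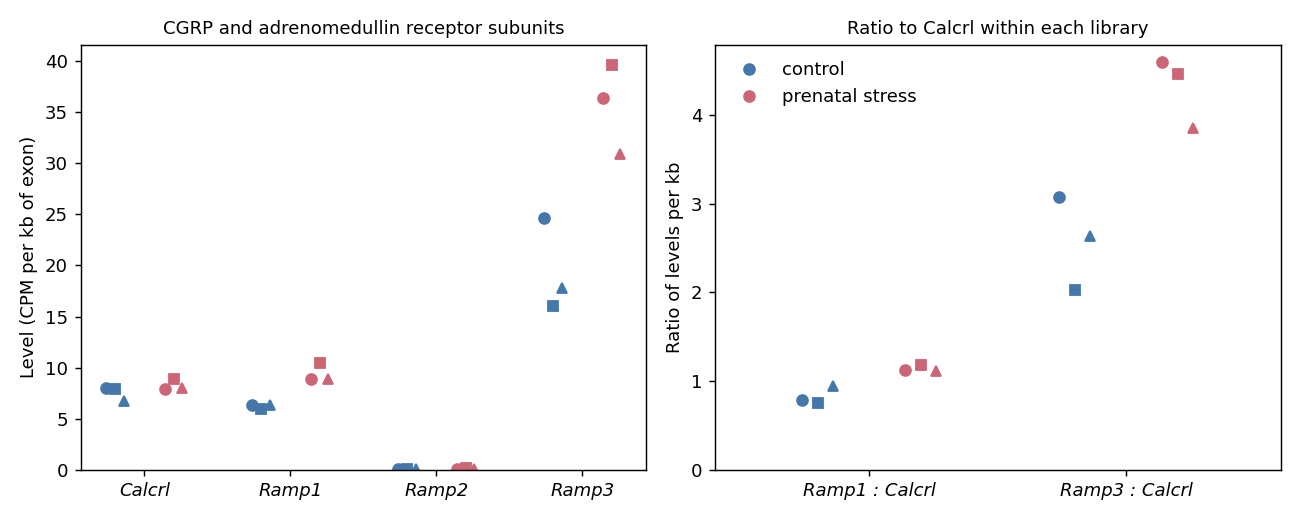
Left, level per kb of exon (CPM per kb) of Calcrl and its 3 partner genes in each library; right, ratio of Ramp1 and Ramp3 to Calcrl within each library. Circles, squares and triangles are replicates 1, 2 and 3. Stress libraries lie above the controls for Ramp1, Ramp3 and both ratios; Ramp2 lies near 0.

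The promoter windows below are shown because they are the upstream sequence of the receptor pair, of which Ramp1 rose and Calcrl did not pass, and of the 2 peptide precursor genes described further on, which rose. Each is the 250 bases before the RefSeq transcription start (GRCm38.p6), 5′ to 3′ on the gene's strand; the build behind the counts is not given in the sources used here. Capitals mark matches, on either strand, to TGACG (core of the cyclic AMP response element), AGAACA (part of the glucocorticoid response element), the E-boxes CACGTG and CATGTG, the GATA motif AGATAA or the GC box GGGCGG. The windows are chr1:91179572-91179821 (plus strand), chr2:84425267-84425516 (minus), chr7:114636358-114636607 (minus) and chr6:7554811-7555060 (plus).
Ramp1: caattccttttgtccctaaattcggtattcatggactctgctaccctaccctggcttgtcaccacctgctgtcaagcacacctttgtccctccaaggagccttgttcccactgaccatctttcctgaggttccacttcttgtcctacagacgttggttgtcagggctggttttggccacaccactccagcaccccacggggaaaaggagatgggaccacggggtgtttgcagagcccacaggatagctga
Calcrl: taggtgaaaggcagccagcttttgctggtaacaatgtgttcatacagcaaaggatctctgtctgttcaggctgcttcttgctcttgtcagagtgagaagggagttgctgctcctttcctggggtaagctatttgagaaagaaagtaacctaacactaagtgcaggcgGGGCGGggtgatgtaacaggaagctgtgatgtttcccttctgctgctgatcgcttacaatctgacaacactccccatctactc
Calca: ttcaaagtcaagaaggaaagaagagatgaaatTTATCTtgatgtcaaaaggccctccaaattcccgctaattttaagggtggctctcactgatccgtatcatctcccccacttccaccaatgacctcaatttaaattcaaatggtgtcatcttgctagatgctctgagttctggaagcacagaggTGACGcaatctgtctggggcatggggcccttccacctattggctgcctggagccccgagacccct
Tac1: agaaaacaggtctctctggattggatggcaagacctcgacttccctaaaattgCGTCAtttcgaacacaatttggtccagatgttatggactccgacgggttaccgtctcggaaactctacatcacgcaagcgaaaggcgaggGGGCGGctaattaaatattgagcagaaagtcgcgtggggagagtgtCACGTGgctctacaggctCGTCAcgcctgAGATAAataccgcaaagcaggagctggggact

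The Ramp1 window held no match to any of the 6 motifs, and the Calcrl window held 1 GC box, which starts 83 bases before the start site. The Calca window held 1 TGACG and 1 GATA match. The Tac1 window held 2 TGACG matches and 1 each of CACGTG, the GATA motif and the GC box. Of the 32851 windows in the RefSeq table, cut to the same length, TGACG was found in 17.8%, AGAACA in 16.1%, CACGTG in 6.02%, CATGTG in 12.3%, AGATAA in 9.99% and GGGCGG in 32.7%. CACGTG is its own reverse complement, and no motif searched contains another. These are letter matches in 1 window per gene.

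The VIP receptors were measured at low counts. Vipr2 had 31, 43 and 26 counts in the controls and 55, 45 and 44 after stress, or 0.404, 0.731 and 0.458 CPM against 1.09, 0.835 and 0.792 CPM. Every stress library was above the controls, but the margin between control replicate 2 and stress replicate 3 was small. The means were 0.531 ± 0.176 and 0.906 ± 0.162 CPM (SD, n = 3; log2 difference 0.78, SE 0.29). The difference did not pass over all genes (edgeR adjusted p = 0.144, unadjusted p = 0.0264, where 24.8% of all genes tested had an unadjusted p under 0.05), and the unadjusted 95% interval of the fold change was 1.08 to 2.71.

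Vipr1, the other VIP receptor, is known from T cells. It had 50, 42 and 29 counts in the controls and 24, 34 and 35 after stress, or 0.651, 0.714 and 0.511 CPM against 0.476, 0.631 and 0.630 CPM. The groups overlapped, and the log2 difference of -0.11 (SE 0.25) did not pass (edgeR adjusted p = 0.828). At this depth the interval of the fold change, 0.621 to 1.38, leaves room for a change of either sign. Vipr2 made up 38.3%, 50.6% and 47.3% of the summed VIP receptor counts in the controls and 69.6%, 57.0% and 55.7% after stress. The groups did not overlap (exact two-sided permutation test, p = 0.1; 0.133 adjusted over 4), though the Clopper-Pearson 95% intervals of control replicate 2 (39.5% to 61.6%) and stress replicate 3 (44.1% to 66.9%) did, and such intervals cover counting error only. Per kb, the controls held Vipr1 at 0.108 ± 0.018 and Vipr2 at 0.119 ± 0.0394 CPM per kb, which overlapped between libraries, far below Ramp1 and Calcrl.

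The remaining 5 members were at or next to no counts. Crhr2 had 0 counts in all 6 libraries. Crhr1, the main CRH receptor of the pituitary, had 1 count in stress replicate 1 and 0 elsewhere. Tacr1, the high-affinity receptor of substance P, and Tacr2, which prefers neurokinin A, had 1 count each in control replicate 1 and 0 elsewhere. Nmur1, known from type 2 innate lymphoid cells, likewise had 1 count, in control replicate 1. A count of 0 allows a level of up to 0.0391 to 0.0595 CPM per library (3 counts). In libraries with a count of 0, transcripts of these receptors were not detectable above that level. A count of 1 allows a higher level than that. No fold change is given.

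Peptides that act on these or related receptors, with Npy and Pomc, which act on none of the 9, were examined as a list of 18 genes, of which 8 were tested, 2 rose, none fell and 6 did not pass. Their median log2 difference was 0.47, against 0.00 over all genes tested. The precursor genes of CGRP and of substance P were the ones that rose. Both are best known from sensory neurons.

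Tac1 encodes the precursor of substance P and neurokinin A. It was at 58.2, 38.8 and 63.0 CPM in the controls and 107.1, 145.7 and 116.0 CPM after stress, and each stress library was above all controls. The mean rose from 53.3 ± 12.8 to 122.9 ± 20.2 CPM (SD, n = 3), a log2 difference of 1.20 (SE 0.18, edgeR adjusted p = 0.0102). The call held when any 1 library was left out (adjusted p from 0.00261 to 0.0395). Tacr1 and Tacr2, as given above, had at most 1 count in a library. Receptors of these peptides outside the tachykinin receptor family were not examined.

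Calca encodes both calcitonin and alpha-CGRP by alternative splicing, which counts per gene cannot tell apart. It was at 591, 370 and 527 CPM in the controls and 845, 872 and 736 CPM after stress. All stress libraries were above all controls, and the mean rose from 496 ± 114 to 818 ± 71.6 CPM (SD, n = 3). The log2 difference was 0.72 (SE 0.15, edgeR adjusted p = 0.0321). The call failed with control replicate 3 removed (adjusted p = 0.0788) and with stress replicate 1 (0.0858) or 2 (0.117) removed. It also failed with the macrophage (0.0967) or the endothelial list mean (0.078) as a covariate. Calcb, the beta-CGRP gene, was at 1.44 and 1.69 CPM and did not pass (adjusted p = 0.52).

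Markers of neurons were low beside these levels. The 6 neuronal markers summed to 0.933 to 1.04 CPM in controls and 0.576 to 1.63 CPM after stress. Of these Elavl4 had 25 to 41 counts a library, Tubb3 2 to 28, Stmn2 3 to 22, Nefl 0 to 12, Snap25 0 to 6 and Elavl3 0 to 1. Elavl4 and Tubb3 passed the filter, and neither was called by edgeR, DESeq2 or limma-voom (0 with an unadjusted p under 0.05).

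**Figure D3:**
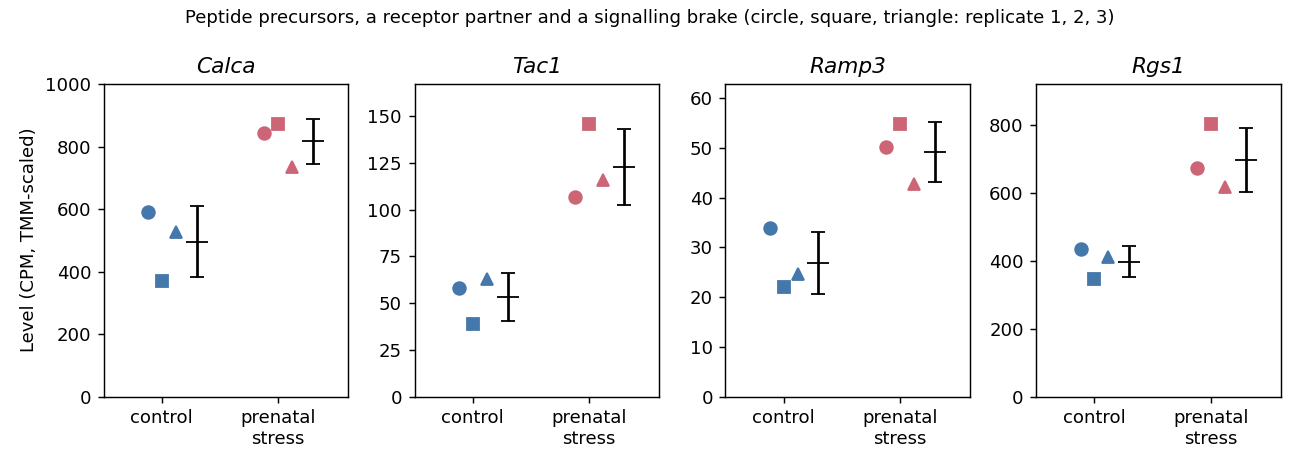
Level in CPM of Calca, Tac1, Ramp3 and Rgs1 by group; points are the 3 pooled libraries of each group and bars the mean ± SD. In all 4 panels every stress library lies above every control.

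Of the other ligands, Vip, Crh and Nmu had at most 1 count in a library, and Ucn, Ucn3, Nms, Tac2 and Iapp had none. Adcyap1 encodes PACAP, a VIP-related peptide that also acts on VIPR1 and VIPR2. It had 34, 20 and 22 counts in the controls and 24, 43 and 36 after stress. In CPM its stress libraries lay above every control, as in 16% of all genes tested. The Adcyap1 difference did not pass (log2 difference 0.71, edgeR adjusted p = 0.165). Adm, the adrenomedullin gene, had a level of 1.67 CPM in controls and 1.17 CPM after stress. Every stress library was below every control, as in 14.5% of all genes tested. The difference did not pass (log2 difference -0.52, edgeR adjusted p = 0.173).

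Enzymes that cut peptides outside the cell or inside it formed a list of 11, of which 10 were tested, 2 rose, none fell and 8 did not pass. The list median was 0.26 on the log2 scale. Anpep, aminopeptidase N, rose from 156 ± 31.9 to 305 ± 57.6 CPM (log2 difference 0.96, SE 0.17, edgeR adjusted p = 0.0189). Its call failed with control replicate 2 removed (adjusted p = 0.0599) and with stress replicate 1 (0.0627) or 2 (0.0757) removed. Nln, neurolysin, rose from 28.9 ± 1.35 to 34.7 ± 1.31 CPM (0.26, SE 0.06, adjusted p = 0.0436), and of the 6 fits on fewer libraries only that lacking stress replicate 3 kept this call (adjusted p up to 0.173). Lnpep, highest of the list in CPM, was at 294 and 354 CPM (adjusted p = 0.0808). Per kb of exon Lnpep was at 20.8 and 25.0 CPM per kb, below Anpep at 37.8 and 73.8. Mme, which encodes neprilysin, the main enzyme that breaks down substance P, had 9 to 11 counts in controls and 10 to 22 after stress.

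The adrenergic list held 8 genes, of which 4 were tested and none passed in edgeR, DESeq2 or limma-voom (median log2 difference -0.02); 1 had an unadjusted p under 0.05 in edgeR. Adra1a, an alpha-1 receptor, was the highest in CPM, at 9.22, 5.85 and 8.31 CPM in the controls and 10.5, 9.87 and 9.70 CPM after stress. Its groups did not overlap, but the difference did not pass (0.36, SE 0.15, edgeR adjusted p = 0.185). Adra1d was at 2.34 ± 0.265 and 1.97 ± 0.569 CPM (adjusted p = 0.512). In that gene 7.74% of the exon length is overlapped by Gm14285 on the other strand. Adrb1, a beta receptor, was at 1.35 CPM in controls and 1.02 CPM after stress (adjusted p = 0.257).

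Genes that carry the signal of the Gs-coupled receptors ranged from under the filter (Adcy1, Adcy5 and Adcy8) to 692 CPM (Gnas, mean of all libraries). Of 24 in the cyclic AMP list, 21 were tested, 2 rose, none fell and 19 did not pass, with a median log2 difference of 0.07. Gnas, the Gs alpha subunit, was at 663 ± 45.8 and 720 ± 34.8 CPM (adjusted p = 0.335) and 22.0% of its exon length is overlapped by genes on the opposite strand. The genes that rose encode regulatory subunits of protein kinase A. Prkar2b rose from 68.6 ± 4.19 to 88.2 ± 9.92 CPM (0.36, SE 0.09, edgeR adjusted p = 0.0462), and its call too was kept only in the fit lacking stress replicate 3 (adjusted p up to 0.187). Prkar1b rose from 2.90 ± 0.63 to 4.96 ± 0.396 CPM (0.77, SE 0.17, adjusted p = 0.0344), with 8.95% of its exon length shared with Gm15672. That call ended without control replicates 2 (0.097) or 3 (0.0918) or stress replicates 1 (0.0752) or 2 (0.128). Prkar1a, the most abundant regulatory subunit gene, was at 520 and 617 CPM (adjusted p = 0.0942).

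Phosphodiesterases break down cyclic nucleotides. Of 15 listed, 12 were tested, 2 rose, none fell and 10 did not pass (median 0.22). Pde10a rose from 18.3 ± 3.72 to 31.8 ± 2.36 CPM (0.79, SE 0.13, edgeR adjusted p = 0.0156), a call that ended without control replicate 3 (0.0576), stress replicate 1 (0.0519) or stress replicate 2 (0.0672). Pde1c, a calcium-activated member, rose from 17.0 ± 1.96 to 27.4 ± 4.63 CPM (0.69, SE 0.13, adjusted p = 0.0234). Its call held only without control replicate 1 or stress replicate 3 (up to 0.108 without one of the other 4). Pde3b and Pde4b, the most abundant, did not pass (adjusted p = 0.0884 and 0.843).

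In the Gq and phospholipase C list all 17 genes were tested and none passed in edgeR or limma-voom (median 0.15), although 9 had an unadjusted p under 0.05 in edgeR (24.8% of all genes tested did). DESeq2 called 4 of the 17, Gna11, Gnaq, Prkcb and Prkcq, 3 higher and 1 lower (11.9% of all genes were called by DESeq2). The most abundant were Prkcb, a protein kinase C gene (454 and 563 CPM, adjusted p = 0.0696), and Plcb2 (359 and 412 CPM, adjusted p = 0.279). Prkcb passed in DESeq2 (adjusted p = 0.0105) and in edgeR without stress replicate 3 (0.023).

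Receptor kinases, arrestins and RGS proteins end G protein signals. Of 18 listed, 17 were tested, 2 rose, none fell and 15 did not pass (median 0.06). DESeq2 also called Rgs3 lower (edgeR log2 difference -0.51, adjusted p = 0.135). Rgs1, a brake on Gi and Gq signals, was at 435, 347 and 412 CPM in the controls and 674, 802 and 617 CPM after stress. Every stress library was above the controls, and the mean rose from 398 ± 45.8 to 698 ± 94.8 CPM (0.81, SE 0.11, edgeR adjusted p = 0.00912). The call held when any 1 library was left out (adjusted p up to 0.0359). Rgs10 rose from 61.3 ± 3.80 to 76.0 ± 4.64 CPM (0.31, SE 0.07, adjusted p = 0.0347), a call that held without stress replicate 1 or 3 and ended without any 1 of the others (up to 0.15). Rgs2, next to Rgs1 in CPM, was at 473 and 508 CPM (adjusted p = 0.544). Per kb of exon Rgs2 was at 130 and 140 CPM per kb, above Rgs1 at 57.3 and 100. Grk2, the receptor kinase with the highest level, was at 323 CPM in both groups, and Arrb1 and Arrb2, the arrestin genes, did not pass (adjusted p = 0.498 and 0.288). Scaled by library totals, Rgs10, Prkar2b and Nln were no longer called (adjusted p = 0.0654, 0.0694 and 0.122).

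**Figure D4:**
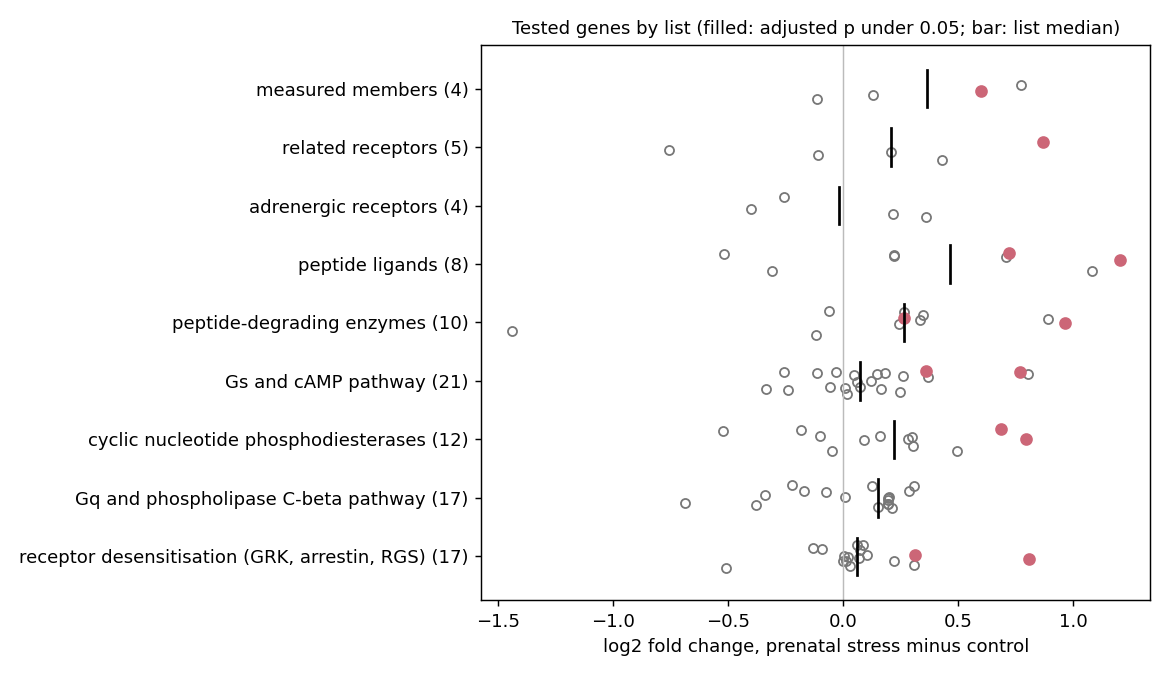
Log2 fold change (prenatal stress minus control) of every tested gene in the receptor set and in each pathway list; filled points passed an adjusted p of 0.05, open points did not, and bars are list medians. Each filled point lies to the right of 0, and most genes lie within 0.5 of 0.

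By likeness of pattern over the 6 libraries, with genes of at least 5 CPM compared, the 3 genes closest to Ramp1 were Ssr4 (Pearson r = 0.998), Ccsap (0.997) and Taok1 (0.996). Of these Ccsap and Taok1 were called higher, and Ssr4 was not (edgeR adjusted p = 0.0536). Closest to Calcrl were Zc4h2 (0.989), Ccnc (0.976) and Cav1 (0.965), none of which was called. These are the top of 9512 genes over 6 libraries that fall into 2 groups, and are a description only.

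Markers of other cells varied between libraries. The macrophage list mean was 8.09, 8.29 and 8.27 on the log2 scale for the controls, and for stress replicates 1, 2 and 3 it was 7.82, 7.62 and 8.27. With that mean as a covariate Ramp1 was still called (log2 difference 0.51, edgeR adjusted p = 0.0162). In the fit without stress replicate 3 and without a covariate it also stayed called (0.64, 0.00171). There the macrophage mean of every control lay above that of each remaining stress library. That fit therefore cannot tell the macrophage level and the condition apart. The endothelial list, of interest because vessels express Calcrl, ranged from 0.63 to 1.61 in controls and from 0.32 to 1.30 after stress, and with it Ramp1 stayed called (0.62, 0.0252). None of its 12 genes was called in edgeR, DESeq2 or limma-voom, and 0 had an unadjusted p under 0.05.

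Of the list means used as covariates, only that of the lymphoid list separated the groups. Its mean was 2.79, 1.68 and 0.763 in the controls and 0.0314, 0.626 and 0.145 after stress, so every control was above every stress library. Of its 14 tested genes 4 fell (Lck, Il2ra, Trbc1 and Trbc2), 2 rose (Il7r and Areg) and 8 did not pass in edgeR. DESeq2 called 6 lower, and limma-voom called none lower and the same 2 higher. The T cell receptor gene Trbc1 had 686, 215 and 57 counts in the controls and 13, 26 and 12 after stress, and Cd3e had 74, 8 and 5 counts in the controls and 0 in each stress library. The summed level of the 16 genes overlapped, 75.2 to 155 CPM in controls and 105 to 127 CPM after stress. With the list mean as a covariate Ramp1 kept its size but was no longer called (log2 difference 0.66, SE 0.14, adjusted p = 0.144), and 9 genes of the whole table were called; Ramp3, Tac1, Calca, Anpep, Nln, Prkar1b, Prkar2b, Pde1c, Pde10a, Rgs1 and Rgs10 also lost their calls. The differences of Nln and Rgs10 were then smaller (0.22 and 0.24), those of the other 9 larger (0.43 to 1.26), and their standard errors were larger (for Tac1 1.24, SE 0.28). Since this mean does not overlap between the groups, it and the condition cannot be told apart. The rise of Ramp1 also went with that of the mast cell list, whose median log2 difference was 0.45; the part of that in the result was not tested. Kit itself was at 1818 and 2126 CPM (log2 difference 0.23, adjusted p = 0.187).

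**Figure D5:**
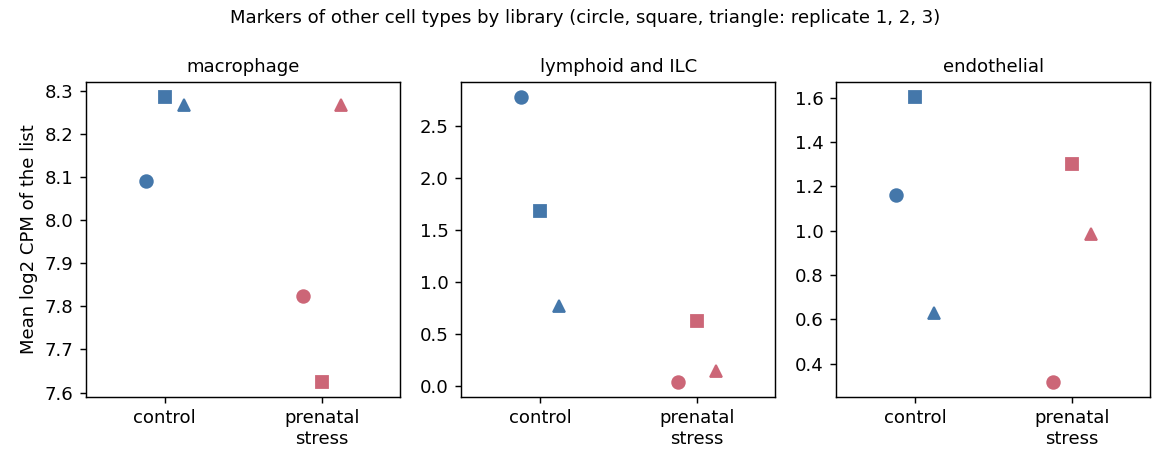
Mean log2 CPM of the macrophage, lymphoid (with innate lymphoid cell, ILC) and endothelial marker lists in each library, on axes that do not start at 0. Macrophage markers in stress replicate 3 sit at the control level (8.27), and lymphoid markers lie higher in all 3 controls than in any stress library.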

How the data were processed

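The authors deposited 1 table of raw counts per gene symbol for each of 6 libraries; per the labels' protocols these are stranded, poly-A selected, paired-end libraries. FastQC, STAR 2.4 and HTSeq 0.9.1 and the builds GRCm39 and mm10 are named in the submitters' processing notes, with no role given. Strand setting and annotation: not given in the sources used here. The 5 tally rows that name no gene were left out of library sizes and tests; 79.7% to 81.4% of tallied reads were assigned to genes.

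Genes were filtered with filterByExpr (minimum count 10) and tested with edgeR 4.0.16 (R 4.3.3, TMM factors, glmQLFit and glmQLFTest, no covariate, Benjamini-Hochberg over 16716 genes, threshold 0.05). The common biological coefficient of variation was 10.4%. Alternatives used RLE, upper-quartile or no factors, no filter or a stricter one (at least 10 counts in 3 libraries and a mean of 1 CPM or more), limma-voom 3.58.1, DESeq2 1.42.0, the replicate number as a block, the mean of a macrophage, lymphoid or endothelial list as covariate, and each library left out. Exon lengths and overlaps came from GENCODE M21, and the test was tried on simulated counts.

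The members and lists were chosen with earlier results of these data known. The genes named are all members, and the 2 genes of highest mean CPM and the called genes of each list (6 at most, by p). Named as well are the 3 genes most like each member with a mean of at least 1 CPM (log2 of CPM plus 0.5). Others (Ramp2, Gna11, Gnaq, Prkcq, Rgs3, Adcy genes, Calcb, Adm, Adcyap1, Adrb1, Mme, Grk2, the arrestins, and markers) were named after their values were seen. The ratios within a library and the second length, the GC box motif and the display of the Calca and Tac1 promoters were chosen after the data were seen.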

Additional observations from a re-analysis of the deposited data

How the results depend on the processing

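The rise of Ramp1 kept its direction and its call in 16 of 17 alternatives and lost the call with the lymphoid list mean as covariate (log2 difference 0.66, adjusted p = 0.144), where the number of members called went to 0. Leaving out 1 library gave 0.51 to 0.64, and the other alternatives 0.49 to 0.66. Calcrl, Vipr1 and Vipr2 stayed uncalled in every alternative in which they were tested; Vipr1 and Vipr2 fell under the stricter filter, and DESeq2 gave Vipr1 no adjusted p. Library totals in place of TMM factors moved the median of all genes to -0.12 and the share of called genes that were higher from 70.0% to 26.5%; Ramp1 was then at 0.49 (adjusted p = 0.0119). The number of genes called, 1035, was 2085 with library totals, 1933 with no filter, 1989 with DESeq2, 441 with the macrophage covariate, 9 with the lymphoid covariate and 336 with the endothelial covariate. Without 1 library it ranged from 196 (without stress replicate 2) to 2647 (without stress replicate 3); the cause was not tested.

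Deviations of same-numbered libraries from their group means correlated at 0.13, -0.08 and 0.06, and not every library correlated best with its own number. Whether same-numbered libraries shared a batch cannot be told from deviations within groups of 3. With the replicate number as a block 622 genes were called, and Ramp1 stayed called (0.60, adjusted p = 0.0218), while Nln (0.0903), Prkar1b (0.057) and Prkar2b (0.0779) did not. For 28 genes named by the rule on lists and likeness, 395 alternative values stayed on the same side of the threshold, 68 lost a call, 13 gained one, and no called value turned direction. Calca, Nln, Prkar1b, Prkar2b and Rgs10 lost their calls with the macrophage covariate, and these 5, Ramp3 and Pde1c with the endothelial covariate (adjusted p 0.0557 to 0.104). DESeq2 called 5 of the 10 peptide-degrading enzymes, 4 of the 21 cyclic AMP genes and 5 of the 12 phosphodiesterases, all higher. EdgeR called 2 in each. Over all genes tested DESeq2 called 11.9%, of which 63.5% were higher, and edgeR called 6.19%. Counts of 55 or fewer limit what can be said of the VIP receptors, and counts of 0 or 1 limit the 5 members that were not tested.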

Other observations

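Some receptor and enzyme genes beyond those above were chosen here after their values were seen. Npy1r, a receptor of neuropeptide Y, was under the filter on low counts, with 3, 1 and 2 counts in control replicates 1, 2 and 3 and 7, 14 and 8 in the stress libraries. Adcyap1r1, the receptor that prefers the VIP-related peptide PACAP, had 2, 7 and 2 counts in the controls and 0, 0 and 1 after stress.

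Dpp4, a peptidase that T cells also carry, had 807, 269 and 164 counts in the controls and 102, 142 and 112 after stress. Every stress library was below every control in CPM, but the log2 difference of -1.44 did not pass (edgeR adjusted p = 0.0759). The order of Dpp4 over the controls was that of Trbc1, and whether the 2 are linked was not tested. Crhbp, which encodes a secreted protein that binds CRH, was at 1.37 CPM in controls and 1.85 CPM after stress (log2 difference 0.43, adjusted p = 0.237), although neither CRH nor its receptors had more than 1 count in a library.

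Of the 7 tested Schwann cell and melanocyte markers 4 rose, all of them pigment cell genes (Dct, Pmel, Tyrp1 and Mlana). Over all genes tested edgeR called 4.34% higher. DESeq2 called Sox10 higher in place of Mlana, and limma-voom called only Dct, Pmel and Tyrp1. The list summed to 15.7 to 21.4 CPM in controls and 29.5 to 73.4 CPM after stress, with no overlap. The sums of the 8 granulocyte and basophil markers did not overlap either (412 to 469 CPM in controls, 487 to 594 CPM after stress). Of the 6 tested, edgeR, DESeq2 and limma-voom each called 2 higher, Cd200r3 and Mcpt8. What part these lists have in the other results was not tested.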
